A study of Mus musculus with 12 samples.

Results

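Cytochrome oxidase (complex IV of the respiratory chain) and its substrate cytochrome c were followed through 10 nuclear genes, chosen by name: the shared subunit genes Cox4i1, Cox5a and Cox5b, the liver-type genes Cox6a1, Cox7a2 and Cox8a, the muscle-type genes Cox6a2, Cox7a1 and Cox8b, and Cycs, which encodes somatic cytochrome c. All probe sets that list 1 of these symbols alone were taken, which gave 25 of the 45037 probe sets analysed and all 10 genes, of 18193 genes on the array. A gene is represented by its brightest probe set unless another is named. The samples were total RNA of liver and quadriceps muscle from C57BL/6 mice, either controls or carriers of a mutation in PGC-1beta, a transcriptional coactivator of mitochondrial genes encoded by Ppargc1b, which the series title calls hypomorphic. The 4 groups, control liver, mutant liver, control muscle and mutant muscle, had 3 Affymetrix Murine 430 2.0 arrays each, 12 in all. The labels state neither age nor sex, nor whether each array came from a mouse of its own. The spread behind every p-value here is therefore that among 3 samples a group and could be technical. For genotypes within a tissue it was pooled over the groups of that tissue. For comparing tissues, and for the difference of responses, it was pooled over all 4 groups, although spread differs between tissues. The limma fits also moderated it by the spread of other genes. Values are fluorescence intensities of probe sets, without a unit. Differences are between means of log2(intensity + 16), with the standard error (SE); the offset of 16 understates the changes of dim probe sets.

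Cytochrome oxidase passes electrons from cytochrome c to oxygen and pumps protons as it does so. Its catalytic core is encoded in mitochondrial DNA, and the nuclear subunits studied here surround that core and affect its assembly, stability and regulation. Subunits VIa, VIIa and VIII exist in a form found in liver and most tissues and a form found in heart and skeletal muscle, each from a gene of its own. In older names these are the L and H forms. Cytochrome c carries electrons from complex III to complex IV and, when released into the cytosol, starts the assembly of the apoptosome. In bulk tissue, fewer cells of a type and less RNA per cell cannot be told apart.

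Facts of the arrays that bear on these genes came first. Median intensity as deposited was 27.2 to 40.1 in the liver arrays and 20.1 to 22.3 in the muscle arrays. The log2 ratio of signal from 3′ over 5′ ends of control transcripts, a measure of RNA integrity that is higher where RNA is degraded, averaged 1.90 and 1.87 in liver mutants 1 and 3, against 0.90 in liver mutant 2, 0.50 to 0.97 in liver controls and 0.33 to 0.56 in muscle. Hepatocyte markers (5 of 6 listed genes matched, albumin among them) summed to 49790 to 54390 in liver arrays and 60.6 to 137 in muscle arrays. Fast muscle markers (6 of 6, with Ckm and Acta1) summed to 76170 to 78270 in muscle and 37.6 to 77.8 in liver. Slow muscle markers (6 of 6) did not follow the tissues: they summed to 755 to 1245 in liver and 315 to 383 in muscle. Atp2a2 alone, a calcium pump gene of that list, read 629 to 1139 in liver and 158 to 238 in muscle. The probe set of Ppargc1b itself, which the labels do not place with respect to the mutated stretch, was read with arrays normalised within each tissue, so only genotypes are compared. It read 547, 283 and 481 in control livers and 404, 493.5 and 203 in mutant livers. In muscle it read 302, 284.5 and 332 in controls and 423, 280.4 and 271 in mutants, so the genotypes overlapped in both tissues.

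The isoform genes separated the tissues. To set liver beside muscle, all 12 arrays were brought to one intensity distribution. On that scale Cox6a2, which encodes the muscle form of subunit VIa, read 9043, 8825 and 8233 in control muscles and 48.7, 50.2 and 44.6 in control livers. The groups were far apart, and the difference of muscle minus liver was 7.09 on the log2 scale (SE 0.15, limma adjusted p = 7.93e-16). Cox8b, the muscle form of subunit VIII, read 7075, 7731 and 6864 in control muscles and 21.7, 16.8 and 4.51 in control livers. Its liver values lay near or under the offset of 16, at the 19.8th percentile of all probe sets in liver, against the 99.8th percentile in muscle. The size of its difference is therefore set by the offset, with 7.94 fitted here and 6.54 to 9.11 over 24 alternatives. Cox7a1, the muscle form of subunit VIIa, read 3351, 3621 and 3495 in control muscles and 26.8, 55.3 and 28.6 in control livers (6.09, SE 0.18, adjusted p = 4.89e-14). In mutant animals the muscle-type genes were again separated, with differences of 6.95 for Cox6a2 and 5.77 for Cox7a1, and 8.56 for Cox8b under the same limit.

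Of the liver-type genes, 2 were lower in muscle and 1 was not. Cox6a1, which encodes the liver form of subunit VIa, read 6012, 6650 and 6671 in control livers and 1299, 1228 and 1474 in control muscles, a difference of -2.26 (SE 0.10, adjusted p = 1.37e-11). Cox8a, the liver form of subunit VIII, read 2193, 3141 and 2833 in control livers and 505, 518 and 513 in control muscles (-2.36, SE 0.20, adjusted p = 3.26e-08). Both stayed well expressed in muscle, at the 97.3rd percentile of its probe sets for Cox6a1 and the 92.7th for Cox8a. Cox7a2, the liver form of subunit VIIa, was bright in both tissues, at the 99.8th percentile in liver and the 99.9th in muscle. It read 6075, 6341 and 6031 in control livers and 8281, 8381 and 8417 in control muscles. Its muscle values were the higher ones on this scale (0.44, SE 0.08, adjusted p = 0.000233), but the direction turned to -0.29 (adjusted p = 0.030) with values as deposited and to -0.41 (adjusted p = 0.000255) with arrays normalised within each tissue. Those scalings move the median of all genes to -0.48 and -0.49, and relative to that median Cox7a2 stood at 0.19 and 0.08.

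**Figure D1:**
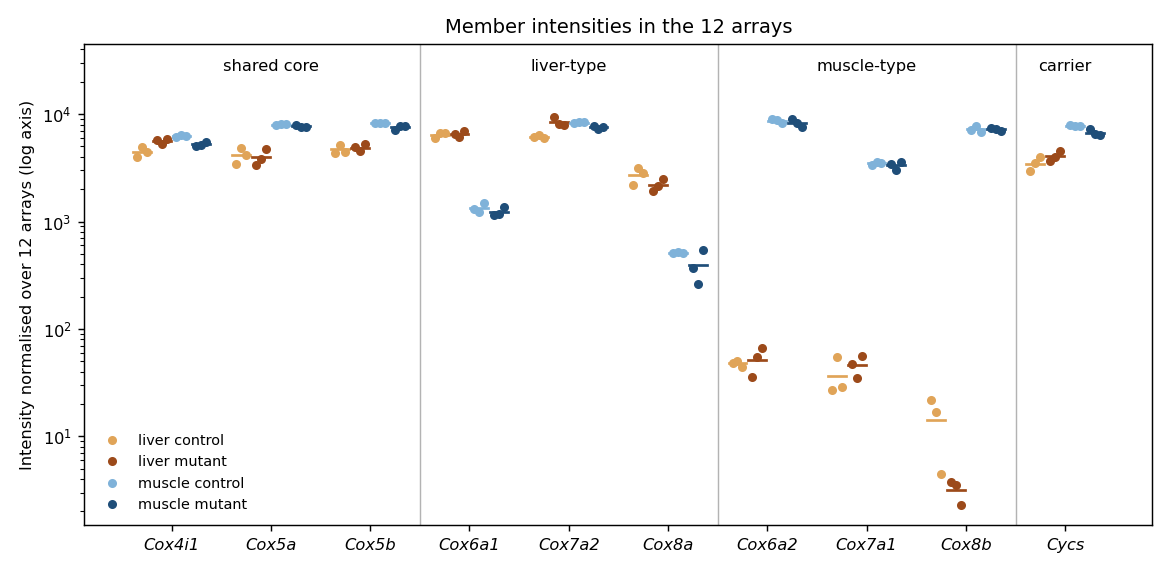
Intensity of the 10 genes, 1 probe set each, in the 12 arrays (log axis, all arrays on one distribution). Points are arrays and bars are means of 3; the muscle-type genes lie between 2.28 and 66.0 in liver and between 3035 and 9103 in muscle, while Cox6a1 and Cox8a lie lower in muscle than in liver.

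The shared genes and Cycs differed less between the tissues, and the sign for Cox4i1 and Cox5b rested on the scaling. Cycs read 8005, 7804 and 7690 in control muscles and 2946, 3482 and 3959 in control livers (1.18, SE 0.11, adjusted p = 1.38e-07). It was higher in control muscle under every scaling tried, by 0.45 with values as deposited, by 1.13 with median centring and by 0.30 with arrays normalised within tissue. Cox5a, which with Cox5b faces the matrix side of the complex, differed by 0.96 (SE 0.13, adjusted p = 8.87e-06), but by 0.23 with values as deposited (adjusted p = 0.158). Cox5b differed by 0.83 (SE 0.09, adjusted p = 9.35e-07) and by -0.03 with arrays normalised within tissue (adjusted p = 0.771). Cox4i1, the main isoform of subunit IV, whose ATP binding is part of the enzyme's regulation, differed by 0.49 (SE 0.09, adjusted p = 0.000247), and by -0.26 and -0.41 under those scalings. In mutant animals the difference for Cox4i1 was -0.09 (adjusted p = 0.401) and for Cycs 0.73 (adjusted p = 3.49e-05); with values as deposited it was -1.11 for Cox4i1 and -0.30 for Cycs.

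In controls all 10 genes passed, 8 higher in muscle and 2 lower (7 passed with values as deposited and 8 with arrays normalised within tissue), where 54.3% of 14617 genes tested passed (28.3% higher, 26% lower). In mutants 8 passed, 6 higher and 2 lower, against 56.2% of all genes (27.5% higher, 28.8% lower), and Cox4i1 and Cox7a2 did not. With values as deposited both passed as lower in mutant muscle, at -1.11 and -1.09 (adjusted p = 2.03e-07 and 5.76e-08), and with arrays normalised within tissue at -1.002 and -1.013. With median centring Cox7a2 stood at -0.37 (adjusted p = 0.0388) and Cox4i1 at -0.39 (adjusted p = 0.0551). Cox8b was above the filter on dim probe sets in muscle alone, so it had to differ. Of the scalings, values as deposited moved the share of higher genes among those that passed in controls from 52.0% to 25.5%, and arrays normalised within tissue to 25.7%. The median of the 10 members was 0.89, against 0.00 for all genes.

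**Figure D2:**
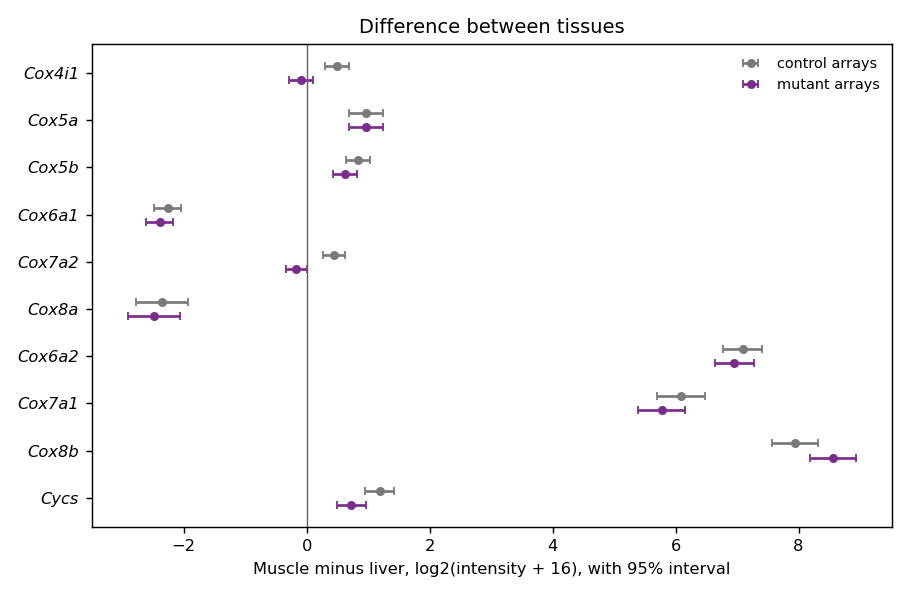
Muscle minus liver difference of each gene on the log2(intensity + 16) scale, with 95% intervals from limma, in control and in mutant arrays (3 per group). The muscle-type genes lie between 5.77 and 8.56 (the size for Cox8b being set by the offset), Cox6a1 and Cox8a between -2.48 and -2.26, and the shared genes, Cox7a2 and Cycs between -0.17 and 1.18.

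Tested each on its own, 22 of the 24 member probe sets tested passed in controls, 17 higher and 5 lower in muscle, where 47.1% of 30951 probe sets passed. The second probe set of Cox6a1 differed by -3.17, against -2.26 for the brightest. The second one of Cox6a2 was higher in muscle as well; it lay at the 8.7th percentile in liver, under the offset, so its difference has no measured size. For Cycs the probe sets that were bright in both tissues differed by 1.18, 1.64 and 1.94. The remaining Cycs probe set differed by -1.02 and is dim, at the 49.8th percentile in liver and the 23.6th in muscle. A dim probe set each of Cox5b and Cox8a, at -0.06 and -0.39, did not pass.

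The muscle-type genes and the liver-type genes Cox6a1 and Cox8a differ between tissues by over 2 log2 units, in opposite directions. Upstream sequences are shown for some genes of this split, Cox7a1, Cox8b and Cox6a1, and for Cycs, which lies on neither side of it. RefSeq promoter sequences (GRCm38.p6) were at hand for 8 of the 10 genes, those other than Cox4i1 and Cox6a2, and the 250 bases before the transcription start were read. Cox7a1 lies at chr7:30183921-30184170 on the plus strand, Cox8b at chr7:140900447-140900696, Cox6a1 at chr5:115348959-115349208 and Cycs at chr6:50566570-50566819, the last 3 on the minus strand. Cox6a1 and Cycs were added to the muscle-type genes after the sequences had been read. That of Cox8a, the other liver-type gene of the split, is not printed. It held 11 CG pairs and none of the motifs marked by capitals below. Each is written from 5′ to 3′ and ends at the base before the start. Capitals mark matches, on either strand, to the motifs CAGCTG (an E-box bound by myogenic factors), a pattern looser than the MEF2 motif (CTA and TAG parted by any 4 bases, not A or T alone), TNAAGGTCA (estrogen-related receptors), the NRF1 motif (GCGC and TGCGC parted by any 1 base), CCGGAAG (ETS factors such as GABP), GGGCGG (SP1) and TGACGTCA (CREB).
Cox7a1: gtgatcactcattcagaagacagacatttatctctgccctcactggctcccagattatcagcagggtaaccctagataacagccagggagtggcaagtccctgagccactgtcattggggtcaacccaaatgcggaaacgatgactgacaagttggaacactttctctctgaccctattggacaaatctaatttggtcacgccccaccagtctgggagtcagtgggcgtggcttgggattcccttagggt
Cox8b: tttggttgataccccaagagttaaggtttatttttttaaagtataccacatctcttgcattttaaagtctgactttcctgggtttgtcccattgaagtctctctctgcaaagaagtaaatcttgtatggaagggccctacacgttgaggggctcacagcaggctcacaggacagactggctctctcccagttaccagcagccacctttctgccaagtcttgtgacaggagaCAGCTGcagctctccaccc
Cox6a1: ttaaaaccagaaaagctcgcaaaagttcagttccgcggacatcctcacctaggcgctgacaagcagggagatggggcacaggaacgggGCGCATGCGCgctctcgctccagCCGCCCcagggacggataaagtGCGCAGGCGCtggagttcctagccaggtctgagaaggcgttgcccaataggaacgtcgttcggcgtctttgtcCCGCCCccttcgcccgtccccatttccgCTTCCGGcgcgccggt
Cycs: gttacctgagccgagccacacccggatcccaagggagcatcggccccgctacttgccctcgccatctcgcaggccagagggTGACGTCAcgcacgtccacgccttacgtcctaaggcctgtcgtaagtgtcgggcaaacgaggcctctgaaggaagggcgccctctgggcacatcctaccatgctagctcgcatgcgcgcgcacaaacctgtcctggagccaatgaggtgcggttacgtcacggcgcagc
The muscle-type sequences held few CG pairs, 4 in Cox7a1 and 1 in Cox8b, against 26 in Cox6a1, 23 in Cycs, 14 in Cox7a2, 11 in Cox8a, 26 in Cox5a and 22 in Cox5b, and a median of 6 over all 32851 promoters. The G+C content was 51.2% in Cox7a1 and 47.2% in Cox8b, against 52.8% to 64% in the other 6 and a median of 52.4% overall. Cox8b held CAGCTG at bases -19 to -14 from the start, a motif found in 13% of all promoters. Cox6a1 held the NRF1 motif at -162 to -153 and at -117 to -108, a motif found in 3.74% of promoters, and CCGGAAG (6.91%). TGACGTCA was in Cycs at -169 to -162 and in 1.55% of promoters. Of the other members, Cox5b matched the pattern looser than the MEF2 motif (3.2%), as CTACTTTTAG, with a C among the middle bases. GGGCGG (32.7%) was in Cox5a, Cox6a1 and Cox7a2. TNAAGGTCA (1.14%) was in none of the 8. The looser E-box CANNTG, which includes CAGCTG and is not capitalised, was in 5 of the 8 and in 66.2% of promoters. These matches describe letters and not binding.

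Within an array, the muscle-type minus liver-type difference of a pair is free of that array's overall scale where both values lie far above the offset. Levels of different probe sets cannot be set against each other, so only its variation between arrays is read. For Cox6a2 minus Cox6a1 it was -6.54, -6.65 and -6.79 in control livers, -7.01, -6.45 and -6.40 in mutant livers, 2.78, 2.83 and 2.47 in control muscles and 2.96, 2.79 and 2.44 in mutant muscles. The genotypes overlapped in each tissue. For Cox7a1 minus Cox7a2 the means were -6.91 and -7.11 in control and mutant liver and -1.26 and -1.17 in control and mutant muscle, again with overlap. For Cox8b minus Cox8a they were -6.53 and -6.84 in liver and 3.78 and 4.21 in muscle, and mutant muscles spread from 3.65 to 4.71 around the controls' 3.70 to 3.86. The liver values of this last pair rest on the offset, since Cox8b is dim there. Those of the other pairs depend on it in part, with Cox6a2 at 35.4 to 66.0 and Cox7a1 at 26.8 to 56.0 in liver.

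**Figure D3:**
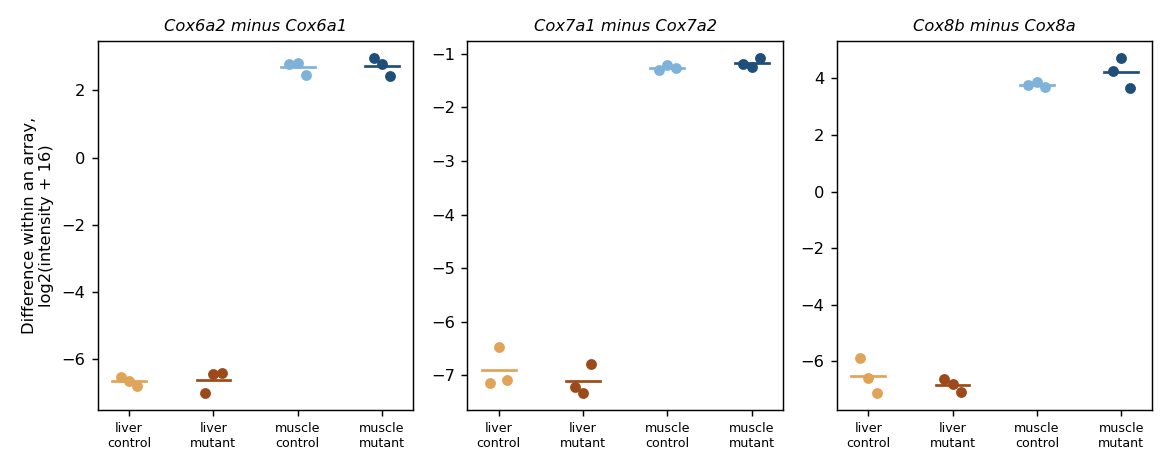
Difference between the muscle-type and the liver-type gene of each pair within an array, on the log2(intensity + 16) scale with 12 arrays on one distribution; points are arrays and bars are means of 3. Liver and muscle arrays lie far apart in each pair, and control and mutant arrays overlap in each tissue.

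Genes whose pattern over the 12 arrays was nearest to a member were found by the Euclidean distance between log2 values, each gene centred on its own mean, among 14607 other genes; a small distance means a like difference between tissues. For Cox6a2 they were Smtnl2 (0.43), Smr2 (0.72) and Rragd (0.74). For Cox7a1 they were Myoz1 (0.66), which encodes a Z-disc protein, Setd7 (0.72) and Scn4b (0.74), and for Cox8b Des (0.72), the muscle intermediate filament, Ckm (0.73), muscle creatine kinase, and Cmya5 (0.73). For Cycs they were Uqcrc2 (0.29), a complex III core subunit, Msantd4 (0.38) and Ndufab1 (0.39), the mitochondrial acyl carrier protein.

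Between genotypes, from here on, arrays were normalised within each tissue. In mutant liver 1 of the 9 members tested passed, Cox7a2, and none fell, where 3.35% of 13326 genes passed (2.33% higher, 1.03% lower). Its intensities were 7910, 8219 and 7850 in controls and 11390, 10480 and 10260 in mutants. All mutants lay above all controls, with a rise of 1.34-fold (0.42, SE 0.08, limma adjusted p = 0.0242), and its second probe set moved alike (0.41, adjusted p = 0.0711 over all probe sets). The size varied little, from 0.38 to 0.46 with 1 array left out, but the call held only without liver mutant 2 (adjusted p = 0.0284) and was lost without any other single array (adjusted p 0.0579 to 0.127), and over all 19 alternatives the adjusted p ran from 0.0131 to 0.485. Without liver mutants 1 and 3, those of high 3′ to 5′ ratio, the difference was 0.40, and with that ratio as a covariate it was 0.37 (adjusted p from 0.394 to 0.485, the first with 1 mutant left).

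The other liver-expressed members did not pass in mutant liver. Cox4i1 read 5231, 6468 and 5830 in controls and 7482, 6931 and 7606 in mutants, with no overlap (0.33, SE 0.10, adjusted p = 0.0916); with values as deposited it passed (0.58, adjusted p = 0.0317). Cycs read 3883, 4591 and 5190 in controls and 4790, 5208 and 5934 in mutants, so that the groups overlapped (0.23, SE 0.12, adjusted p = 0.359). Its other bright probe sets gave 0.12 and 0.47, the latter without overlap (adjusted p = 0.179). Cox8a went the other way, with 2868, 4154 and 3727 in controls and 2505, 2816 and 3260 in mutants (-0.31, SE 0.15, adjusted p = 0.284). Cox5a stood at -0.06 (95% interval -0.39 to 0.27), Cox5b at 0.06 (-0.16 to 0.29) and Cox6a1 at 0.02 (-0.17 to 0.21). Cox5a turned to 0.21 with values as deposited.

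Muscle-type genes in liver were dim. Cox6a2 read 54.8 to 61.4 in controls and 43.7 to 79.8 in mutants (0.06, SE 0.22), and Cox7a1 33.3 to 67.3 and 42.9 to 68.1 (0.26, SE 0.27), both with overlap. Cox8b lay under the 40th percentile set as a filter and was not tested; it read 26.97, 20.8 and 5.65 in controls and 4.72, 4.43 and 2.87 in mutants, all near or below the offset, and without the filter its difference was -0.70 (adjusted p = 0.246). In all, 2 of 9 members lay higher without overlap and 0 lower, where 13% of all genes lay higher and 11% lower. The median of the 9 was 0.06, against 0.01 over all genes. Macrophage markers (6 of 6 listed genes matched) summed to 1501 to 2093 in control livers and 2390 to 3138 in mutant livers, and the 3′ to 5′ ratio was higher in liver mutants 1 and 3. Of the macrophage list Csf1r alone averaged lower in mutant livers, at 784 against 817 in controls. The part of macrophages in the differences of the members was not tested.

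**Figure D4:**
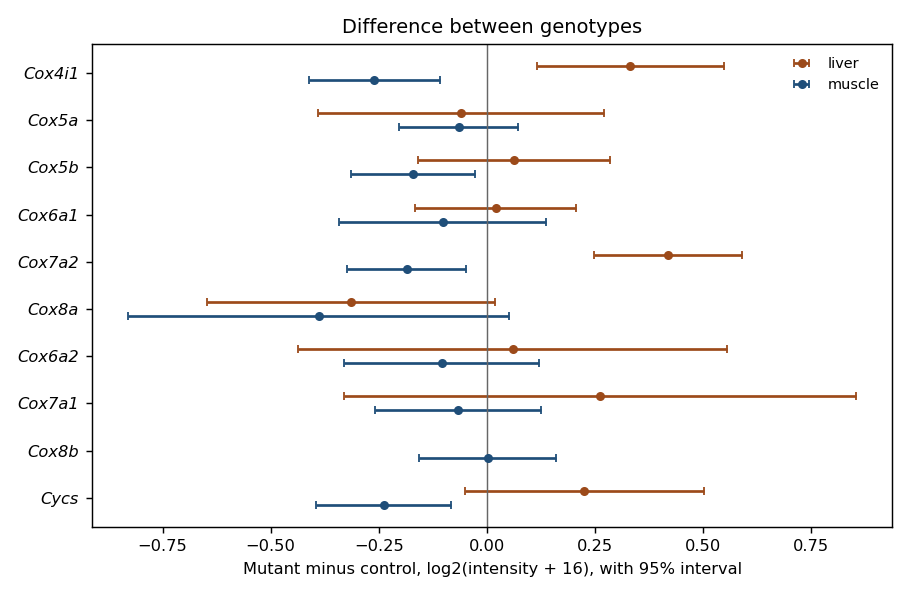
Mutant minus control difference of each gene in liver and in muscle on the log2(intensity + 16) scale, with 95% intervals from limma (3 arrays a group, normalised within tissue). Cox4i1 and Cox7a2 stand at 0.33 and 0.42 in liver and at -0.26 and -0.19 in muscle; Cox8b was not tested in liver.

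In mutant muscle no member passed the test, where 0.0152% of 13131 genes did (2 genes, both higher). An unadjusted p under 0.05 was found for 560 genes (4.26%), among them 4 of the 10 members. Means were lower in 9 of the 10 members, while over all genes 49.9% had a higher mean. Arrays did not overlap in 4 of the 10, all lower, where 5.22% of all genes lay lower and 4.33% higher without overlap. Cycs read 5691, 5546 and 5430 in controls and 5069, 4573 and 4494 in mutants (-0.24, SE 0.07, adjusted p = 0.995). Cox4i1 read 4317, 4494 and 4330 in controls and 3529, 3606 and 3835 in mutants (-0.26, SE 0.07, adjusted p = 0.995). These are the shared subunit IV and the carrier, and every mutant lay under every control in both. Cox7a2 read 5939, 6048 and 6077 in controls and 5475, 5093 and 5318 in mutants (-0.19, SE 0.06). Cox5b read 4984, 5475 and 5449 in mutants and the same 5965 in every control, since it held the same rank in each; as deposited the controls read 6076, 5814 and 6228 and the mutants 5090, 5193 and 5567. Its difference was -0.17 (SE 0.06). The differences of these 4 genes kept their sign under all 17 alternatives run for muscle, and none passed under any of them.

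By their brightest probe sets, the muscle-type genes, Cox5a and Cox6a1 lay closer to their controls. Cox8b read 4937, 5475 and 4801 in control muscles and 5180, 5129 and 4904 in mutant muscles (0.00, 95% interval -0.16 to 0.16). Cox7a1 read 2274, 2478 and 2382 in controls and 2304, 2072 and 2449 in mutants (-0.07, 95% interval -0.26 to 0.13). Cox6a2 read 6881, 6550 and 5891 in controls and 6927, 5858 and 5265 in mutants (-0.10, 95% interval -0.33 to 0.12). The genotypes overlapped in all 3, and also in the second probe set of Cox6a2, which gave -0.34 (SE 0.42). Whether these genes differ from Cycs and Cox4i1 in their response was not tested. Cox5a stood at -0.07 (95% interval -0.20 to 0.07) and Cox6a1 at -0.10 (-0.34 to 0.14). Cox8a was uneven, with 378, 388 and 384 in controls and 286, 207 and 407 in mutants (-0.39, SE 0.20), and its other well-expressed probe set gave -0.08.

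Probe set by probe set, 22 of the 25 were tested in muscle. Of these, 11 lay lower in mutants without overlap and 0 higher, where 5.11% of 27022 probe sets lay lower and 4.57% higher without overlap; probe sets of a gene share their target and are not independent. The 11 came from 5 genes. Cycs had 3, at -0.38, -0.37 and -0.24, Cox5b had 4, from -0.30 to -0.17, and Cox7a2 had 2, at -0.19 and -0.24. Cox4i1 and Cox6a1 had 1 each, at -0.26 and -0.18. None passed (limma adjusted p = 0.989 in each), where 0.0074% of probe sets did. Marker sums of muscle overlapped between genotypes: fast fibre markers ran from 67070 to 67530 in controls and 67260 to 68310 in mutants, slow fibre markers (6 of 6) from 247 to 299 and 261 to 299, and adipocyte markers (4 of 6) from 1711 to 2898 and 1925 to 3130. The largest part of the slow fibre sum was Atp2a2, at 127 to 169 in controls and 135 to 188 in mutants. As that list summed higher in liver than in muscle, its overlap says little about slow fibres. Brown adipocyte markers, of interest because brown fat also uses Cox7a1 and Cox8b, had 5 of 6 genes matched and summed to 355 to 401 and 339 to 445. Most of that sum was Ppargc1a, at 293.5 to 343 in controls and 283 to 361 in mutants, so the sum does not measure brown fat. The defining marker Ucp1 read 5.08 to 17.8.

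**Figure D5:**
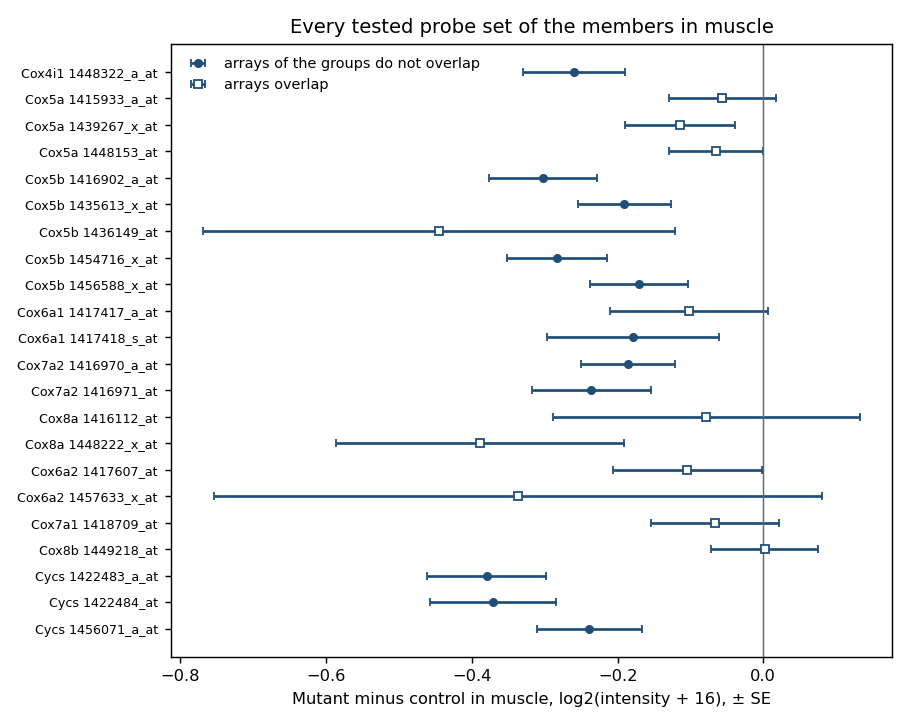
Mutant minus control difference in muscle of the 22 member probe sets tested, each on its own, on the log2(intensity + 16) scale with SE (3 arrays a group). Filled points mark the 11 probe sets whose mutant arrays all lie below the controls, from -0.38 to -0.17.

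The response to the mutation differed between liver and muscle in 2 of the 9 members tested, Cox7a2 and Cox4i1, where 1.42% of 11841 genes passed (1.16% higher in liver, 0.262% lower). Cox7a2 differed by 0.61 (SE 0.10, adjusted p = 0.0165) and Cox4i1 by 0.59 (SE 0.12, adjusted p = 0.0335), both higher in mutant liver and lower in mutant muscle. With every probe set tested on its own, 3 of 20 member probe sets passed, both of Cox7a2 (0.61 and 0.64, adjusted p = 0.0203 and 0.0373) and that of Cox4i1, where 0.81% of all did. The call of Cox7a2 was lost without liver mutant 1 (0.56, adjusted p = 0.0591) or muscle mutant 2 (0.58, adjusted p = 0.0531) and under 5 other alternatives, and its adjusted p ran from 0.00967 to 0.149 over 24 alternatives. That of Cox4i1 held in 2 of the 12 fits with 1 array left out, those without liver control 2 or liver mutant 2 (adjusted p 0.0241 to 0.101 over the 12), with differences from 0.51 to 0.66. Without liver mutants 1 and 3, of high 3′ to 5′ ratio, the differences were 0.59 for Cox7a2 and 0.51 for Cox4i1 (adjusted p = 0.102 and 0.287). Cycs differed by 0.46 (SE 0.15, adjusted p = 0.152), and another of its probe sets by 0.84 (adjusted p = 0.056). All 9 differences were above 0, where 52.4% of all genes were, with a median of 0.23 against 0.03 for all genes. That count rests on the probe set and the processing. Another well-expressed probe set of Cox8a stood at -0.25. Cox5a kept its sign in 16 of 24 alternatives and Cox8a in 20. The tenth member, Cox8b, dim in liver, stood at -0.70 without the filter (adjusted p = 0.285). The others of the 9 ran from 0.01 for Cox5a to 0.33 for Cox7a1.

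Other genes of the complex and partners of cytochrome c were read from lists. Of 13 other complex IV subunit genes 9 were matched to a probe set, and the mitochondrially encoded subunits and Cox7b were not analysed here. In mutant liver 1 of 8 tested rose and 0 fell, with a median of 0.15, where 3.35% of all genes passed. That gene was Ndufa4, a subunit first assigned to complex I, which rose from 6375, 6199 and 5917 to 8072, 8709 and 7820 (0.41, SE 0.08, limma adjusted p = 0.0306). Like that of Cox7a2, its call held with 1 array left out only without liver mutant 2 (adjusted p = 0.0481), and it was lost in 11 of 19 alternatives (adjusted p 0.0115 to 0.383). Cox6c stood at 0.27 (adjusted p = 0.0991). In muscle 0 of 6 passed (0.0152% of all genes) and the median was -0.06. Ndufa4 read 4098, 4275 and 3801 in controls and 3575, 3268 and 3364 in mutants (-0.25, SE 0.07, adjusted p = 0.995), again without overlap. The response of Ndufa4 differed between the tissues (0.66, SE 0.12, adjusted p = 0.0179), the only 1 of 6 tested, where 1.42% of all genes passed. That call was lost without liver mutant 1, muscle control 1, muscle control 2 or muscle mutant 2 (adjusted p 0.0554 to 0.0591), and in 9 of 24 alternatives in all (adjusted p 0.0107 to 0.14). Between control tissues 3 of 8 were higher in muscle (Cox6b1 at 0.64, Cox6c at 0.74, Ndufa4 at 0.31) and 2 lower (Cox6b2 at -2.87, Cox8c at -1.40), a share near the 54.3% of all genes. Cox6b2 was above the filter on dim probe sets in liver alone, which favoured a lower muscle value. On the scale used to compare tissues it read 158.9, 210.8 and 192.9 in control livers and 2.43, 19.1 and 16.6 in control muscles. The muscle values lay near or under the offset, so the size of its difference is set by the offset. With arrays normalised within tissue Cox6b1, Cox6c and Ndufa4 turned to -0.20, -0.13 and -0.60, while Cox6b2 and Cox8c stayed lower under every scaling tried.

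Of 9 partners of cytochrome c 8 were matched. None of 7 passed in mutant liver (3.35% of all genes), with a median of 0.00, and none of 8 in mutant muscle (0.0152%), with a median of -0.10. Suox, sulphite oxidase, which reduces cytochrome c, stood at -0.48 in liver (adjusted p = 0.0632). Cyc1, the complex III subunit that hands electrons to cytochrome c, read 2467, 3426 and 2802 in control muscles and 2199, 1999 and 2001 in mutant muscles, with no overlap (-0.47, SE 0.11, adjusted p = 0.995). Between control tissues 3 of 8 were higher in muscle, among them Hccs, the lyase that attaches haem to cytochrome c (1.17, SE 0.15, adjusted p = 3.73e-06), and Bak1 (0.95), a pore-forming protein of apoptosis. Both stayed higher under every scaling tried, while Cyc1 went from 0.50 to -0.43 with arrays normalised within tissue. Against 54.3% of all genes, 6 of 8 passed. The 3 that were lower kept that direction under every scaling, among them Suox (-1.86) and Casp9 (-1.19), the caspase that the apoptosome activates.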

How the data were processed

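The intensities are linear probe set values as deposited by the authors, 1 column per array. How probes were summarised and arrays scaled: not given in the sources used here. Of 45101 probe sets 64 controls were left out. Symbols came from the platform annotation, 34754 of them matched by Entrez identifier to RefSeq gene tables. The brightest probe set stood for a gene. Arrays were quantile-normalised within tissue, because their medians of log2(intensity + 16) spread over 0.38 in liver, above a bound of 0.2, and over all 12 arrays for comparing tissues. Genes above the 40th percentile of probe sets (in the tissue compared, in both tissues for the difference of responses, in either for comparing tissues) were tested with limma 3.58.1 in R 4.3.3, with an intensity trend and Benjamini-Hochberg adjustment over all genes tested, at 0.05. The fits were tested on simulated data. Figures were drawn with matplotlib 3.10.9. The number of arrays limits the precision. The members, lists and tests were chosen with earlier results of these data known. All members were named, with list genes past the test and the 3 nearest patterns. Cox6c, Suox and Cyc1 between genotypes, and Cox6a1 and Cycs among the promoters, were named after their values or sequences were seen.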

Additional observations from a re-analysis of the deposited data

Results flagged for a closer look

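The response of Cox7a2 to the mutation differed between the tissues by 0.61 on the log2 scale (liver minus muscle, limma adjusted p = 0.0165), and that of Cox4i1 by 0.59 (adjusted p = 0.0335). Both were singled out because the test of the difference between tissues itself passed. In both genes all mutant livers lay above the control livers and all mutant muscles below the control muscles. Over all genes 13% lay higher without overlap in mutant liver and 5.22% lower in mutant muscle, and the share with both was not counted. The genes were picked by a test on these same arrays, so this separation adds no further support. Within a tissue Cox4i1 passed in neither (limma adjusted p = 0.0916 in liver and 0.995 in muscle), and Cox7a2 passed in liver alone. With 1 array left out the call between tissues held in 2 of 12 fits for Cox4i1 and in 10 for Cox7a2. The 3′ to 5′ ratio was higher in liver mutants 1 and 3 and the macrophage marker sum in all 3 mutant livers, and the part of the macrophage sum in these differences was not tested. Csf1r, a gene of that sum, averaged lower in mutant livers.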

How the results depend on the processing

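The alternatives were another offset, filter, scaling, probe set rule, variance model, a replicate block and left-out arrays. In liver the 447 genes past the test became 219 with no filter, 297 with values as deposited, 164 with median centring, 172 with the mean of probe sets, 0 without the intensity trend (2332 at an unadjusted p under 0.05), 0 without liver mutants 1 and 3 (1093 unadjusted) and 2 with RNA integrity (3′ over 5′) as a covariate. With 1 array left out they ran from 0 (without liver control 2, 2286 unadjusted, or liver mutant 1, 1752 unadjusted) to 739 (without liver mutant 2). The 1 member past the test became 2 with values as deposited and 0 with no filter, median centring, no trend, without liver mutants 1 and 3 or with the covariate, and 0 to 1 with 1 array left out. In muscle the 2 genes became 1 with the mean of probe sets and 0 without the trend (590 unadjusted), and 1 to 2 with 1 array left out. For the difference of responses the 168 genes became 58 with no filter, 57 as deposited, 8 with median centring, 85 with the mean of probe sets, 0 without the trend (1717 unadjusted) and 10 without liver mutants 1 and 3, and ran from 12 (without liver mutant 1) to 390 (without liver mutant 2) with 1 array left out. Its 2 members became 0 with no filter, median centring, no trend or without liver mutants 1 and 3, and 0 to 2 with 1 array left out. Between tissues 7938 and 8218 genes became 14564 and 15552 with every probe set tested on its own, where more features were tested; with 1 array left out they ran from 7330 to 7998 and from 7635 to 8234. With 1 array left out the members past the test stayed at 10 in controls and ran from 8 to 9 in mutants. With values as deposited 7 passed in controls, and with arrays normalised within tissue 8. The cause of the other shifts was not tested.

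Same-numbered samples did not deviate together in every pair (r from -0.10 to 0.19), so the numbers were not taken as pairs. With the replicate block 11 genes passed in liver and 26 for the difference of responses, and 0 members in each (Cox7a2 at adjusted p = 0.0614 and 0.0515).

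Signs that turned belonged to small differences or to the scaling of tissues. In liver Cox5a turned to 0.21 as deposited, 0.20 with median centring and 0.10 with the mean of probe sets, and Cox6a1 to -0.042 with that mean. Without liver mutants 1 and 3 Cox5b, Cox6a1 and Cox7a1 stood at -0.058, -0.074 and -0.021, and with the covariate at -0.12, -0.072 and -0.21. With 1 array left out Cox5a ran from -0.19 to 0.054, Cox6a1 from -0.026 to 0.063 and Cox6a2 from -0.090 to 0.25 in liver, and Cox8b from -0.034 to 0.056 in muscle. In the difference of responses Cox5a ran from -0.13 to 0.12 and Cox8a from -0.15 to 0.31. There Cox8a stood at -0.093 with the mean of probe sets and Cox5a at -0.0070 with all 12 arrays normalised together and -0.041 without liver mutants 1 and 3. Between control tissues Cox4i1 and Cox7a2 turned to -0.26 and -0.29 as deposited and to -0.41 each with arrays normalised within tissue, where Cox5b turned to -0.033. Between mutant tissues Cox5a, Cox5b and Cycs turned to -0.056, -0.39 and -0.30 as deposited, and Cox5b and Cycs to -0.27 and -0.17 within tissue.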
